A study of Mus musculus with 30 samples.

Results

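The rod photoreceptor genes described here are 31 genes of rod phototransduction, the rod outer segment and photoreceptor transcription, out of 55385 genes in the deposited tables. The rule names them by their known roles in the rod and uses no measured value. All 31 were found through mouse GENCODE M21, and all 31 were among the 20979 genes that passed the filter on low counts in retina.

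Rods are the photoreceptors of dim light and the most numerous neurons of the mouse retina. In the dark, cyclic GMP holds a cation channel of the outer segment open. Light activates the G protein transducin, which turns on a phosphodiesterase that breaks cyclic GMP down, so the channel closes. A kinase, an arrestin and a GTPase-activating complex end the response, while guanylate cyclases and their calcium-sensing activators restore cyclic GMP. The transcription factors Nrl, Nr2e3 and Crx set the rod gene programme. Rods are among the heaviest consumers of oxygen in the retina and have been studied as a site of early change in diabetes.

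Retinal RNA came from 14 mice of 16 weeks, 1 library per mouse. Mice were wild-type or carried a global knockout of Camk2d, the gene of calcium/calmodulin-dependent kinase II delta, and were either Lepr(+/+), labelled normal and here called non-diabetic, or Lepr(db/db), which lack the long leptin receptor and are labelled diabetic. There were 3 wild-type non-diabetic libraries (R812, R819 and R852) and 4 wild-type diabetic libraries (R844, R915, R942 and R954). There were 4 knockout non-diabetic libraries (R559, R560, R582 and R590) and 3 knockout diabetic libraries (R587, R588 and R591). The knockout is in every tissue, so both the retina and the rest of the body lack the kinase. Strain, sex and litter are not stated in the labels. Diabetes below means Lepr(db/db) against Lepr(+/+) mice, so diabetes and loss of the long leptin receptor cannot be told apart in any comparison.

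Levels between libraries are given in CPM, counts scaled to a common normalised library size, and levels between genes in TPM, which also corrects for transcript length. Fold changes are log2 values ± standard error, and a gene was called when its adjusted p from edgeR's quasi-likelihood test with Benjamini-Hochberg adjustment over all 20979 genes was under 0.05. The retina libraries held 19979385 to 20819158 counts. Camk2d, the deleted gene, ranged from 285 to 343 CPM over wild-type libraries, while no knockout library exceeded 4.25 CPM. Libraries R915, R942 and R954 stood apart from the other 11: on the first principal component of all tested genes, which held 25.1% of the variance, they scored 36.8 to 40.4 and the others −15.3 to −2.95. The fourth wild-type diabetic library, R844, was with the others on this component. The rod calls, medians and direction counts that rest on the wild-type diabetic group are therefore also given without R915, R942 and R954. On the second component (16.58% of the variance) R844 scored 19.87 and the wild-type non-diabetic libraries 27.41 to 28.26. All other libraries, R915, R942 and R954 among them, scored −16.45 to −0.93. The animal numbers in the labels were lower for every knockout retina than for every wild-type one. The part of this order in the results was not tested. Transcripts of a 14-gene lens list, of which 13 were tested, differed between the groups as well, with 13 called lower with diabetes in wild-type retina, 6 lower with the knockout in non-diabetic mice, 11 higher with the knockout in diabetic mice and 12 higher in the interaction. Without R915, R942 and R954 the 6 calls in non-diabetic mice were the only lens calls left, and the lens medians kept their direction in all 4 of these. Their summed level was 96.4 to 1555 CPM in wild-type non-diabetic, 50.4 to 132 CPM in wild-type diabetic, 89.4 to 179 CPM in knockout non-diabetic and 509 to 1418 CPM in knockout diabetic libraries. Mitochondrial transcripts took 6.83 to 7.65%, 6.22 to 7.29%, 6.90 to 7.62% and 6.05 to 6.42% of counts in the same order. The part of these differences in the results on rod genes was not tested. A fit with the lens crystallin genes removed cannot test it, because the tissue in each library stays the same. In that fit the call of Rpgrip1 with diabetes in wild-type retina was just missed (edgeR adjusted p = 0.0502) and the other rod calls held.

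Promoter sequence was at hand for 24 of the 31 genes, from RefSeq on GRCm38.p6, as 250 bases before to 50 after the RefSeq start. That start can differ from the GENCODE M21 coordinates given below, as it does for Rpgrip1 and Rgs9. Those of 3 of the 4 genes called below are shown, with that of Crx, the homeodomain factor of photoreceptors. Each reads 5′ to 3′ on the gene's own strand, and capitals mark TAATCC or its reverse complement GGATTA, the core bound by Crx, and TGCTGA or its reverse complement TCAGCA, a half-site of Nrl. The motifs cannot share bases with each other.
Rpgrip1 (chr14:52110653-52110952, plus strand): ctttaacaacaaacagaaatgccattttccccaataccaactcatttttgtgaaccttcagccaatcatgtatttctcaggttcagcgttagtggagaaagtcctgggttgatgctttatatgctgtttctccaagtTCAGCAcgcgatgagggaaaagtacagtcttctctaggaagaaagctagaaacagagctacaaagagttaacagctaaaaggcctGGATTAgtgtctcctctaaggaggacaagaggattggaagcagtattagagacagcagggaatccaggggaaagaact
Rgs9 (chr11:109298132-109298431, minus strand): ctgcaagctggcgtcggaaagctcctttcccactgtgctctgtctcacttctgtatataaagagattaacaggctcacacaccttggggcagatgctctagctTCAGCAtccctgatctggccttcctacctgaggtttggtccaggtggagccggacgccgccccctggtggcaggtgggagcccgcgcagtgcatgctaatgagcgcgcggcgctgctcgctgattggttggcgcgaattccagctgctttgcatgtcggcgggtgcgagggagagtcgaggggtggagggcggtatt
Impg2 (chr16:56204063-56204362, plus strand): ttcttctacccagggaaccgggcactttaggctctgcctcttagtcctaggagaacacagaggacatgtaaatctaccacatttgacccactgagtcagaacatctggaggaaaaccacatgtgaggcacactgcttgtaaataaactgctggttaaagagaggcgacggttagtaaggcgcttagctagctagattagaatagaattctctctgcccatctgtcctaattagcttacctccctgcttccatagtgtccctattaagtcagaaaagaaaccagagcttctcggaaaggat
Crx (chr7:15879906-15880205, minus strand): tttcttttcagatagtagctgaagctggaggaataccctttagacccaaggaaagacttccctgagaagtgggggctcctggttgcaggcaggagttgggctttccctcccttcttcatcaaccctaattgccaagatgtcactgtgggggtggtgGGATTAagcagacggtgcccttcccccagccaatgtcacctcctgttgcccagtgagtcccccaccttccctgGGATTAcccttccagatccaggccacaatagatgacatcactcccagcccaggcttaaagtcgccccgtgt
The Rpgrip1 window held 1 match to each motif, Rgs9 held 1 TCAGCA, Impg2 held neither, and Crx held 2 GGATTA. The Crx core was found in 10 of 24 rod promoters (41.7%) and in 1935 of 27025 promoters of the same length (7.16%). These 10 were Gngt1, Cnga1, Cngb1, Sag, Gucy2e, Gucy2f, Guca1a, Rpgrip1, Crx and Samd7. The Nrl half-site was found in 6 of 24 (25.0%) and in 19.1% of all promoters, and both motifs together in Sag and Rpgrip1 (8.33%, against 1.33%). A match describes letters in this window and not a bound site.

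Levels of the rod genes spanned a wide range, and transducin led the order. Gnat1, the rod transducin alpha subunit (ENSMUSG00000034837.12, chromosome 9, 107674474 to 107679712), was highest at 9105 ± 798 TPM (SD, n = 14 retinas). Sag, the rod arrestin (ENSMUSG00000056055.13, chromosome 1, 87803680 to 87845158), followed at 4204 ± 419 TPM. Gnb1, the beta subunit of transducin (ENSMUSG00000029064.15, chromosome 4, 155491361 to 155559269), was at 3546 ± 354 TPM. Next in the order were Pde6g (3410 ± 350 TPM) and Pdc (3199 ± 441 TPM), and the differences between these genes were not tested. At the other end were Samd7, a regulator of rod gene silencing, at 86.5 ± 10.9 TPM and Gucy2f, a retinal guanylate cyclase, at 36.6 ± 5.44 TPM.

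Together the 31 genes held 4.36 ± 0.18% of all TPM in wild-type non-diabetic (n = 3), 4.60 ± 0.16% in wild-type diabetic (n = 4), 4.70 ± 0.31% in knockout non-diabetic (n = 4) and 4.32 ± 0.22% in knockout diabetic retinas (n = 3). The library ranges overlapped between all groups. In kidney, which has no rods, the median sum over 16 libraries was 0.0129%. Of the 31 genes, 21 stayed under 1 TPM in every kidney library. Gnb1 and Reep6, which helps move membrane proteins to the outer segment, were the 2 members with a clear kidney level (medians of 45.4 and 64.3 TPM). Gnb1 belongs to the G proteins of most cells, so its retinal level is not that of rods alone. Rpgrip1 followed at a median of 5.46 TPM.

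**Figure D1:**
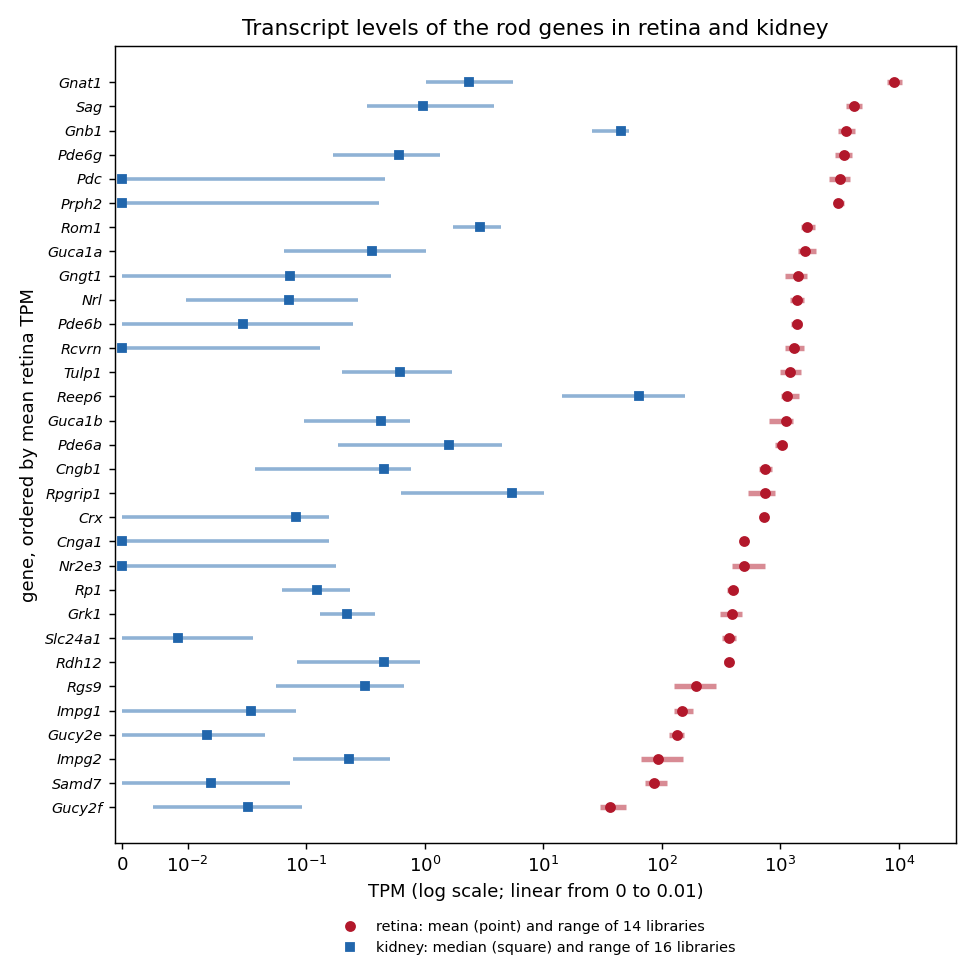
Level of each rod gene in TPM on a log axis (linear from 0 to 0.01), in retina (red point, mean, and bar, range of 14 libraries) and kidney (blue square, median, and bar, range of 16 libraries). Gnat1 leads at 9105 TPM and Gucy2f is lowest at 36.6 TPM in retina; Gnb1 and Reep6 are the genes with the highest kidney medians.

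In wild-type retina, 4 of the 31 rod genes were called with diabetes, 2 up and 2 down, while the other 27 were not called. Impg2, a proteoglycan of the matrix around photoreceptors, rose by 0.69 ± 0.15, and Rgs9, the GTPase-activating protein that switches transducin off, rose by 0.60 ± 0.15. Rcvrn, the calcium sensor recoverin, fell by 0.28 ± 0.07, and Rpgrip1, a scaffold of the connecting cilium, fell by 0.32 ± 0.08. Of all genes tested 2.48% were called, 1.29% higher and 1.19% lower, against 12.9% of the rod genes. Among the 2106 genes with a mean of at least 100 CPM, which include the 31, 3.51% were called. In 4 rod genes (12.9%) every diabetic library was higher than every non-diabetic one (Rgs9, Pde6b, Slc24a1 and Impg2), and in 3 (9.68%) lower (Rcvrn, Gngt1 and Rpgrip1). All genes gave 6.79% higher and 6.97% lower in this way, and genes of at least 100 CPM 11.5% and 5.75%. At an unadjusted p under 0.05 there were 5 of the 31 (16.1%) and 19.1% of all genes. Here and below, shares by unadjusted p and medians are set against all genes only, not against genes of at least 100 CPM. The median change of the rod genes was 0.05 against 0.00 over all genes, with 21 above 0 and 10 below. It was 0.03 (17 above 0) without R942, 0.02 without R852, 0.08 without R819, 0.03 with the sex covariate and 0.12 with limma, and 0.06 (18 above 0 and 13 below) without R915, R942 and R954. In all 31 the 95% interval lay within a log2 change of 1 either way, and in 28 within 0.5. Without R915, R942 and R954 the fit called none of the 31 (and 21 of all genes), and a fit on only these 7 libraries also called none (and 1 of all genes). DESeq2 called 5 of the 31, the same 4 and Gngt1, with 5.79% of all genes called, and limma on log2(TPM + 1) called 0, with 1.2% of all genes called.

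Diabetes in knockout retina gave no call by edgeR among the 31 rod genes or among all genes (0.0%). Of the 31 values 26 were below 0, with a median of −0.14 against 0.01 over all genes. The lowest were 3 genes of the transducin role and 1 of the phosphodiesterase: Pdc had −0.44 ± 0.11 (adjusted p = 0.249), Gngt1 −0.35 ± 0.08 (0.218), Pde6g −0.34 ± 0.09 (0.296) and Gnat1 −0.32 ± 0.09 (0.296), all by edgeR. Rcvrn and Impg1 followed at −0.28 each, while Pde6a (−0.16) and Pde6b (−0.10) were near the median of the 31 and Rgs9, also of the transducin role, had 0.23. In 9 of 31 genes (29.0%) every diabetic library was lower than every non-diabetic one, and in 0 it was higher; over all genes 6.16% were lower and 5.49% higher in this way, and among genes of at least 100 CPM 11.3% and 6.46%. These 9 were Gnat1, Gnb1, Gngt1, Pdc, Pde6g, Cnga1, Rom1, Reep6 and Rcvrn. At an unadjusted p under 0.05 there were 10 of the 31 (32.3%) and 8.84% of all genes. DESeq2 called 5 of them lower (Gnat1, Gngt1, Pdc, Pde6g and Rcvrn) and 0.375% of all genes lower, and limma on log2(TPM + 1) called 0, with 0.00477% of all genes called. DESeq2 called 0.603% of all genes in either direction. The median was −0.09 without library R559 and −0.10 with total counts as library size, with 25 genes below 0 in each, and −0.03 on the TPM scale, with 21 below 0.

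In non-diabetic mice the knockout changed no rod gene by a called amount with edgeR, while 1.14% of all genes were called. Of the values 24 were above 0 and 7 below, with a median of 0.11 against −0.01 over all genes. This median was 0.05 without library R559 and 0.06 without R560. In 6 genes (19.4%) every knockout library was higher (Rgs9, Pde6a, Sag, Guca1b, Reep6 and Impg2) and in 2 (6.45%) lower (Rcvrn and Nr2e3), where all genes gave 6.9% and 6.62%, and genes of at least 100 CPM 10.9% and 6.27%. At an unadjusted p under 0.05 there were 6 rod genes (19.4%) and 13.1% of all genes. DESeq2 called 2, Sag higher (0.27) and Rcvrn lower (−0.23), with 2.49% of all genes called, and limma called 0, with 0.753% of all genes called.

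In diabetic mice the knockout raised 1 rod gene, Rpgrip1 (0.39 ± 0.08, edgeR adjusted p = 0.0243), where 1.78% of all genes were called, 1.02% as higher, against 3.23% of the 31. The median was −0.06 against −0.01 over all genes, with 22 rod genes below 0 and 9 above. The median was −0.02 with total counts as library size (18 below 0), 0.00 with limma (16 below 0), −0.11 without R591 (26 below 0) and −0.04 without R588 (18 below 0). In 7 genes (22.6%) every knockout library was lower (Gnat1, Gnb1, Pdc, Pde6g, Cnga1, Rom1 and Rcvrn) and in 1 (3.23%) higher, where all genes gave 6.93% lower and 6.38% higher, and genes of at least 100 CPM 12.3% lower and 4.8% higher. At an unadjusted p under 0.05 there were 14 of the 31 (45.2%) and 16.1% of all genes. DESeq2 called 5, which were Rpgrip1 higher and Gnat1, Pdc, Rcvrn and Impg2 lower, with 3.3% of all genes called, and limma called 1, with 0.858% of all genes called. Without R915, R942 and R954 none of the 31 was called, and the median was −0.06 with 24 below 0.

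The interaction, the change with diabetes in knockout minus that in wild-type retina, was called for 0 of the 31 with edgeR, where 0.124% of all genes were called. It had a median of −0.17 against 0.00 over all genes, with 28 rod genes below 0, or 22 with total counts as library size. Its lowest value was that of Impg2 (−0.87 ± 0.20, adjusted p = 0.15). Without R915, R942 and R954 the median was −0.17 with 28 below 0, Impg2 had −0.42 and Pdc −0.55, and none was called. At an unadjusted p under 0.05 there were 11 of the 31 (35.5%) and 10.3% of all genes, and DESeq2 called 2, Impg2 (−0.88) and Pdc (−0.57), with 0.898% of all genes called, while limma called 0 of the 31 and 0.0% of all genes. The 2 diabetes comparisons share no library with each other, and the interaction is their difference. Each diabetes comparison shares a group of libraries with each knockout comparison. Values of diabetes and knockout comparisons therefore stand side by side here and were not set against each other. In bulk tissue, fewer rods, less RNA per rod and changes in other cells that express these genes cannot be told apart. Nothing says whether the mice came from separate litters, so the p-values measure only the spread between these libraries.

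**Figure D2:**
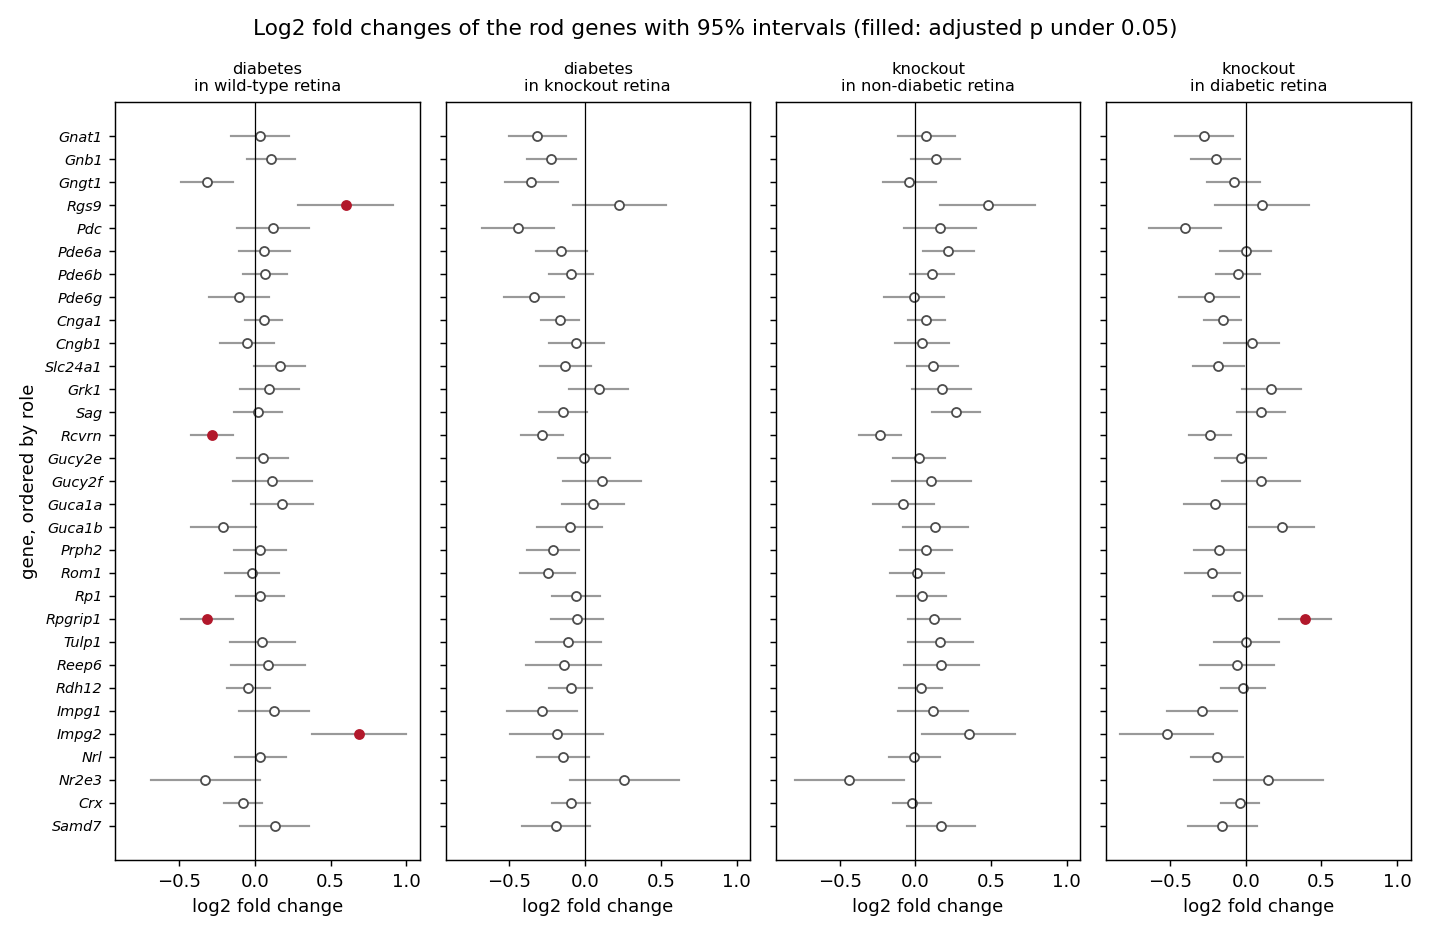
Log2 fold change of each rod gene (points) with its 95% interval (bars) in 4 comparisons, genes ordered by role, filled red where called by edgeR at an adjusted p under 0.05. The 4 filled points with diabetes in wild-type retina are Rgs9, Impg2, Rcvrn and Rpgrip1, the knockout in diabetic retina has 1 (Rpgrip1), and no interval in the 4 panels reaches a change of 1.

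Transducin couples the light signal to the phosphodiesterase. Gnat1 was at 12100, 12340 and 11850 CPM in the wild-type non-diabetic libraries R812, R819 and R852, and at 11630, 12340, 14540 and 11020 CPM in the wild-type diabetic libraries R844, R915, R942 and R954. It was at 13970, 13120, 11980 and 11820 CPM in the knockout non-diabetic libraries R559, R560, R582 and R590, and at 9866, 10030 and 10780 CPM in the knockout diabetic libraries R587, R588 and R591. All 3 knockout diabetic libraries were below the other 11, and the other groups overlapped each other. Per-library values below follow this same order of groups and libraries.

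Gnb1 was at 4415, 4434 and 4323 CPM in wild-type non-diabetic and 4361, 5018, 5181 and 4362 CPM in wild-type diabetic libraries. It was at 5251, 4873, 4720 and 4432 CPM in knockout non-diabetic and 4033, 4016 and 4332 CPM in knockout diabetic libraries. Its knockout diabetic group was below every library of the knockout non-diabetic and wild-type diabetic groups, with changes of −0.22 ± 0.08 and −0.20 ± 0.08 that edgeR did not call. Gngt1, the rod gamma subunit, had 1011 ± 53.2, 811.9 ± 68.6, 983.6 ± 95.7 and 770 ± 38.2 CPM in the 4 groups, and its change with diabetes in wild-type retina (−0.32 ± 0.08, adjusted p = 0.0534) just missed the call, which it reached without R844 or R582, and was −0.31 and not called without R915, R942 and R954. Pdc, phosducin, which binds the transducin beta and gamma subunits, had 1898 ± 194, 2065 ± 281, 2127 ± 258 and 1566 ± 82.1 CPM, and every knockout diabetic library (1499 to 1657 CPM) was below all others (1674 CPM and above).

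Rgs9 (ENSMUSG00000020599.13, chromosome 11, 109225355 to 109298129, minus strand) sets how fast transducin returns to its inactive state. It was at 178, 177 and 193 CPM in wild-type non-diabetic and 300, 318, 233 and 256 CPM in wild-type diabetic libraries. It was at 286, 302, 228 and 204 CPM in knockout non-diabetic and 254, 275 and 365 CPM in knockout diabetic libraries. The 3 wild-type non-diabetic libraries were below the other 11, and the other 3 groups overlapped. The rise with diabetes in wild-type retina (0.60 ± 0.15, edgeR adjusted p = 0.0462, higher in 4 of 4) was not matched by a call in knockout retina (0.23 ± 0.14, 0.707), and the interaction was −0.37 ± 0.21 (0.568). The call ended without any one of R587, R588, R559, R582, R915, R954, R812, R819 or R852 (0.53 to 0.64), and with the sex covariate (0.60, adjusted p = 0.0515). The value was 0.72, not called, with R844 as the lone wild-type diabetic library.

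The phosphodiesterase breaks down cyclic GMP and consists of the catalytic subunits Pde6a and Pde6b and the inhibitory subunit Pde6g. None of the 3 was called by edgeR in any comparison, while DESeq2 called Pde6g lower with diabetes in knockout retina (−0.34, adjusted p = 0.0435). Pde6b ranged from 1929 to 2471 CPM over all 14 libraries and Pde6a from 1926 to 2553 CPM. All 4 knockout non-diabetic libraries were above the wild-type non-diabetic ones in Pde6a (2445 ± 88.5 against 2105 ± 105 CPM). Pde6g had 1686 ± 36.1, 1569 ± 211, 1676 ± 170 and 1326 ± 35.3 CPM, and its knockout diabetic libraries (1285 to 1351 CPM) were below all others (1403 CPM and above).

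The outer segment channel subunits Cnga1 and Cngb1 and the exchanger Slc24a1, which carries calcium out, were not called by edgeR in any comparison. Cnga1 was at 763 ± 24.3, 794 ± 26.4, 801 ± 51.9 and 715 ± 25.2 CPM in the 4 groups. Its 95% interval was −0.29 to −0.04 for diabetes in knockout retina and −0.07 to 0.18 for diabetes in wild-type retina. Cngb1 ranged from 766 to 1009 CPM. Slc24a1 ranged from 1033 to 1324 CPM, and its wild-type diabetic libraries (1142 to 1277 CPM) were above the wild-type non-diabetic ones (1063 to 1105 CPM).

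Grk1, the kinase that phosphorylates the light-activated visual pigment, and Sag, which then caps it, end the response. The calcium sensor Rcvrn inhibits the kinase. Sag was at 3652, 3913 and 3561 CPM in wild-type non-diabetic and 3609, 3462, 3863 and 4141 CPM in wild-type diabetic libraries. It was at 4825, 4202, 4333 and 4490 CPM in knockout non-diabetic and 4104, 3759 and 4253 CPM in knockout diabetic libraries. The knockout non-diabetic libraries were above every wild-type non-diabetic one (0.27 ± 0.07, edgeR adjusted p = 0.11), and the diabetic groups overlapped. Grk1 ranged from 1407 to 1998 CPM, with group means of 1558, 1664, 1758 and 1871 CPM and no call.

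Rcvrn (ENSMUSG00000020907.1, chromosome 11, 67695326 to 67703333, plus strand) was at 787, 855 and 804 CPM in wild-type non-diabetic and 610, 681, 744 and 644 CPM in wild-type diabetic libraries. It was at 715, 664, 707 and 684 CPM in knockout non-diabetic and 549, 562 and 595 CPM in knockout diabetic libraries. Wild-type non-diabetic libraries were highest and knockout diabetic ones lowest, and neither group overlapped any other. The fall with diabetes in wild-type retina was −0.28 ± 0.07 (edgeR adjusted p = 0.0363). The value in knockout retina was −0.28 ± 0.07 (0.218), and the interaction was 0.00 ± 0.09. The knockout values were −0.24 ± 0.07 in non-diabetic (0.108) and −0.24 ± 0.07 in diabetic mice (0.0852), neither called. The wild-type call ended without any one of R587, R559, R582, R915, R954, R812, R819 or R852 (−0.31 to −0.25), and the value was −0.42 without R915, R942 and R954. Glp2r, which overlaps Rcvrn on the opposite strand, rose with the knockout (1.399 ± 0.218 in non-diabetic mice, edgeR adjusted p = 0.00486). Wild-type libraries held 68.3 to 126 CPM of Glp2r, and the knockout range was 187 to 274 CPM. No 31-base stretch of the Rcvrn transcripts occurred in another gene, and the part of the overlap in the Rcvrn values was not tested.

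**Figure D3:**
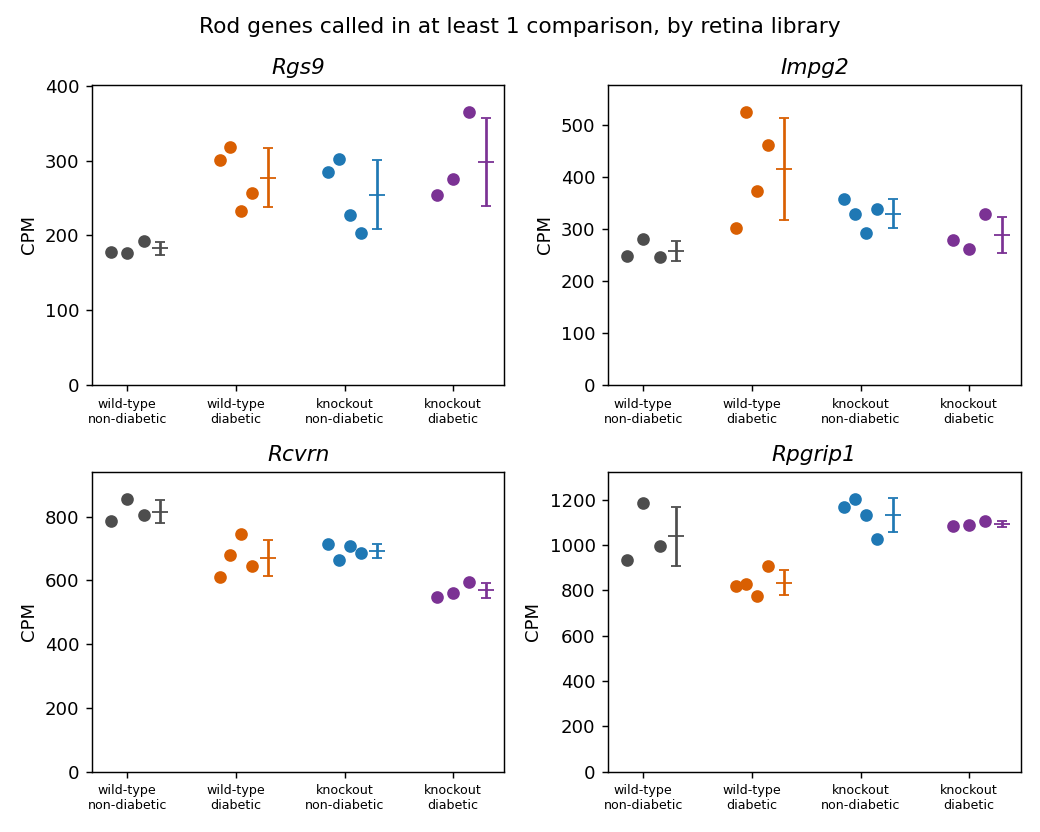
CPM of the 4 rod genes called in at least 1 comparison, 1 point per retina library and beside the points the group mean with SD, in 4 groups; axes start at 0. Rgs9 and Impg2 are lowest in the wild-type non-diabetic group (183 and 258 CPM on average), Rcvrn is highest there (815 CPM), and Rpgrip1 is lowest in the wild-type diabetic group (833 CPM).

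Guanylate cyclases remake cyclic GMP, and their activators sense the fall of calcium in light. None of the 4 genes was called by edgeR with all 14 libraries. Gucy2f was at 163, 168 and 165 CPM in wild-type non-diabetic and 184, 209, 153 and 169 CPM in wild-type diabetic libraries. It was at 196, 199, 160 and 157 CPM in knockout non-diabetic and 176, 168 and 232 CPM in knockout diabetic libraries, and all groups overlapped. Gucy2e ranged from 585 to 720 CPM and Guca1a, an activator, from 606 to 878 CPM. The activator Guca1b had 1016 ± 18.4, 880 ± 150, 1113 ± 56.8 and 1037 ± 69.2 CPM. Its wild-type diabetic values split: R915, R942 and R954 were at 715, 817 and 921 CPM and R844 at 1066 CPM, above all 3 wild-type non-diabetic libraries, and the change of −0.21 ± 0.10 was 0.070 without the 3 and −0.31, called, without R844.

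Of the genes of the disc, the cilium and trafficking, Rpgrip1 was the 1 of 6 called. It anchors the ciliopathy protein Rpgr at the connecting cilium, through which outer segment proteins pass. Rpgrip1 (ENSMUSG00000057132.16, chromosome 14, 52110704 to 52163546, plus strand) was at 935, 1185 and 994 CPM in wild-type non-diabetic and 820, 828, 776 and 908 CPM in wild-type diabetic libraries. It was at 1166, 1203, 1133 and 1028 CPM in knockout non-diabetic and 1084, 1088 and 1106 CPM in knockout diabetic libraries. All 4 wild-type diabetic libraries were below the other 10, among them R844. The fall with diabetes in wild-type retina (−0.32 ± 0.08, edgeR adjusted p = 0.0499) was at the edge of the threshold and ended without any one library other than R844, with −0.21 without R819 and −0.34 without R915, R942 and R954. It was also missed with relative log expression scaling (0.0523), total counts as library size (0.0644) and the lens crystallins removed (0.0502), with values of −0.32 to −0.31, and with limma (−0.34, 0.0864). The rise with the knockout in diabetic mice (0.39 ± 0.08, 0.0243), which uses the same wild-type diabetic libraries, ended without R587, R588, R591, R915 or R942 (0.36 to 0.40) and without R915, R942 and R954 together (0.42). Diabetes in knockout retina gave −0.05 ± 0.08 (0.909), and the interaction was 0.27 ± 0.11 (0.441).

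Rpgrip1 overlaps Supt16 on the opposite strand, and 90.7% of its 31-base stretches were its own, where the other 30 rod genes had at least 94%. Supt16 was at 161 to 207 CPM over all libraries and was not called in any comparison. The other 5 genes of this role were not called either. Prph2 and Rom1 are the tetraspanins of the disc rim. Prph2 had 4489 ± 64.2, 4594 ± 369, 4712 ± 397 and 4075 ± 311 CPM in the 4 groups. Rom1 had 1432 ± 21.4, 1414 ± 172.5, 1442 ± 112 and 1215 ± 51.1 CPM. Rp1, a microtubule protein of the axoneme, ranged from 1467 to 1779 CPM and Tulp1, a trafficking protein, from 920 to 1338 CPM. Reep6 ranged from 1072 to 1647 CPM, with the highest value in R942.

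Impg2 (ENSMUSG00000035270.15, chromosome 16, 56204313 to 56273756, plus strand) was at 247, 280 and 247 CPM in wild-type non-diabetic and 302, 525, 373 and 462 CPM in wild-type diabetic libraries. It was at 358, 330, 292 and 338 CPM in knockout non-diabetic and 278, 262 and 328 CPM in knockout diabetic libraries. The 3 highest values were those of R915, R942 and R954, while R844 lay within the range of the knockout groups. The rise with diabetes in wild-type retina (0.69 ± 0.15, edgeR adjusted p = 0.0270) was 0.23 and not called without those 3, and it also ended without R915, R954, R812, R819 or R852 alone (0.55 to 0.75). In knockout retina the value was −0.19 ± 0.14 (0.775). Between diabetic mice the knockout value was −0.52 ± 0.14 (0.0848), called without R844 (−0.65), as was the interaction (−1.0). Impg1, the other matrix proteoglycan of this pair, had 276 ± 8.20, 301 ± 41.3, 299 ± 36.0 and 246 ± 24.4 CPM and no call. Rdh12, which reduces the retinal released by light, ranged from 320 to 403 CPM with no call.

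The transcription regulators of the rod programme were not called in any comparison by edgeR with all 14 libraries. Crx had the smallest ratio of highest to lowest library of all 31 (1.17, 1096 to 1281 CPM), and Nrl ranged from 1180 to 1565 CPM. Samd7 was at 132, 152 and 134 CPM in wild-type non-diabetic and 133, 150, 146 and 182 CPM in wild-type diabetic libraries. It was at 169, 168, 149 and 141 CPM in knockout non-diabetic and 136, 120 and 155 CPM in knockout diabetic libraries, and all groups overlapped. Nr2e3, which represses cone genes in rods, varied most among the regulators. It had 553 to 661 CPM in wild-type non-diabetic and 398 to 502 CPM in knockout non-diabetic libraries (−0.44 ± 0.17, edgeR adjusted p = 0.276). A fit on only these 7 libraries called it lower (−0.43, 0.0307). In the knockout diabetic group, R591 at 727 CPM was far above R587 and R588 at 429 and 418 CPM.

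**Figure D4:**
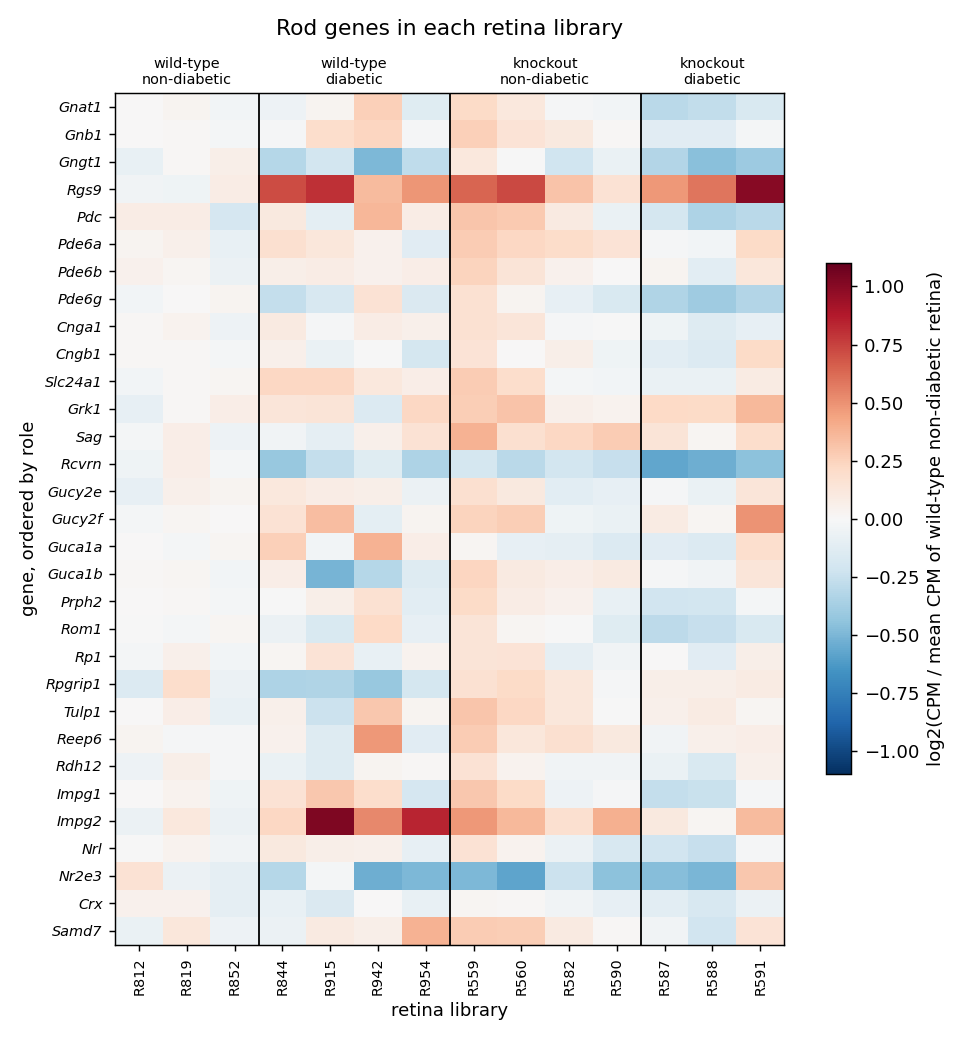
Log2 ratio of each rod gene's CPM to its mean in wild-type non-diabetic retina, 1 column per library and 1 row per gene ordered by role, on a colour scale from blue (lower) to red (higher) whose values run from −0.58 to 1.02. The strongest reds are in Rgs9 and Impg2 and the strongest blues in Rcvrn and Nr2e3, and R559 is red in most rows.

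The rod genes varied together only in part. Across the 14 libraries the median Pearson correlation of log2 CPM over the 465 pairs was 0.35, with 377 above 0. The pairs Gnat1 and Prph2 (0.94), Pde6g and Rom1 (0.93) and Gnb1 and Prph2 (0.93) were most alike, and Rgs9 and Rcvrn most opposed (−0.71). Nr2e3 (−0.08), Grk1 (0.09) and Rpgrip1 (0.09) followed the mean of the other rod genes least. Outside the 31, the levels most like their mean were those of Fam3c (0.93), Tdp1 (0.90), Elovl4 (0.87), Cds1 (0.85) and Cdhr1 (0.85). These points share libraries and groups, so the correlations are descriptions. The mean standardised level of the 31 was highest in R559 (1.27) and lowest in R588 (−1.06), and R587 was also low (−0.71) while the third knockout diabetic library, R591, was at 0.28.

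Each of the 31 varied more between mice than the median gene of at least 100 CPM. The biological coefficient of variation of the 31 had a median of 0.0908 (0.0695 to 0.163), below the 0.107 of all tested genes but above the 0.0691 of genes with at least 100 CPM, a level that 0 of the 31 went under.

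For another 39 photoreceptor genes of the visual cycle, cilium, synapse and transcription, the median log2 changes were 0.02 and −0.06 for diabetes in wild-type and knockout retina and 0.09 and 0.00 for the knockout in non-diabetic and diabetic mice. Of 17 cone genes, 2 of which (Grk1 and Guca1a) are also among the 31, edgeR called 3 (17.6%) lower with diabetes in wild-type retina, where it called 1.19% of all genes lower: Gngt2, the cone transducin gamma subunit (−0.43 ± 0.07, 0.00954), Pde6h, the cone phosphodiesterase inhibitor (−0.51 ± 0.08, 0.0113), and Kcne2, a potassium channel subunit (−0.29 ± 0.07, 0.0495). The median of the cone list was −0.28 in that comparison, where that of the rod genes was 0.05, and the difference between the lists was not tested. Without R915, R942 and R954 none of the 17 was called, the 3 had −0.41, −0.47 and −0.22 in that order, and the cone median turned to 0.04. Summed levels of the microglia list were 47.4 to 54.6 CPM in wild-type non-diabetic and 30.8 to 43.2 CPM in wild-type diabetic libraries, and those of the 12 pigment epithelium genes were 515 to 663 and 265 to 749 CPM. In knockout retinas the pigment epithelium sum was 563 to 1053 CPM without and 341 to 1166 CPM with diabetes. The 13 ganglion cell genes, with no call, were all above 0 with diabetes in knockout retina (median 0.18) and all below 0 with the knockout in diabetic mice (−0.17), and 12 were above 0 with diabetes in wild-type retina (0.27). Their summed level was 569.7 to 1148, 1020 to 1111, 805 to 1015 and 809 to 1080 CPM in the 4 groups. The wild-type non-diabetic median was 1147 CPM, above every wild-type diabetic library, so only the lowest library of that group lay below the diabetic range. Of the 11 microglia genes 10 were above 0 with the knockout in diabetic mice (median 0.43, no call), and 10 were below 0 with diabetes in wild-type retina, 2 of them called (Cd68 and Itgam). Without R915, R942 and R954 the microglia median was −0.42 there, with 9 below 0. With diabetes in wild-type retina edgeR also called 2 of 14 bipolar genes lower (Pcp2 and Scgn), where 1.19% of all genes were called lower. It called lower 1 of 13 Mueller glia genes (Rlbp1) and 1 of 12 endothelial and mural genes (Cldn5). None of the amacrine and horizontal, pigment epithelium and erythroid genes was called there. The bipolar, Mueller glia, endothelial and microglia calls rest on a group that includes R915, R942 and R954. With R844 as the lone wild-type diabetic library, the medians with diabetes in wild-type retina were −0.11 (bipolar), −0.10 (Mueller glia) and −0.31 (endothelial and mural). With all libraries they were −0.09, −0.21 and −0.29. The part of these lists in the rod results was not tested.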

How the data were processed

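Per the labels' protocols, tissue was frozen in liquid nitrogen, Trizol was used for RNA, and sequencing followed standard BGISEQ-500 procedures. Per the submitters' processing notes, Trim Galore 0.6.4 and kallisto (listed as 0.4.6) were used with GRCm38.p6. The authors deposited estimated counts per gene, 38.0% of them not whole in retina, and TPM per gene, both for each library. The counts were rounded, and genes were named through GENCODE M21 (54487 identifiers matched with version, 55144 without, 241 not).

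Retina libraries, 14 in 4 groups taken from the labels, entered 1 fit in edgeR 4.0.16 (R 4.3.3) with trimmed mean of M values scaling, the filterByExpr filter and quasi-likelihood F tests, adjusted by Benjamini-Hochberg over 20979 genes and called under 0.05. Kidney libraries, 16 in all, gave TPM levels only. The fits were tested on simulated counts. Alternatives were relative log expression or total count scaling, no filter, only the groups compared, a sex covariate read from transcripts, leaving out R915, R942 and R954, removing lens crystallins, leaving out each library, DESeq2 1.42.0, and limma 3.58.1 on log2(TPM + 1). DESeq2 was run with its own filter, which left 14920 to 20996 genes with an adjusted p.

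No measured value enters the rule for the 31, but members, lists and alternatives were chosen with earlier results of these data known, so they are not independent evidence. Cone, lens, microglia, bipolar, Mueller glia and endothelial lists without R915, R942 and R954 were added after seeing the data. Genes named with every library's value were those called in at least 1 comparison and the 3 highest and 2 lowest in TPM. Glp2r and Supt16 are named because they overlap called genes. Uniqueness is the percent of a gene's 31-base stretches found in no other gene. The correlation values used log2(CPM + 0.5).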

Additional observations from a re-analysis of the deposited data

Results flagged for a closer look

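Guca1b in knockout non-diabetic retina was marked because 1 library lay far from the others: R559 was at 1197 CPM, where R560, R582 and R590 were at 1071 to 1091 CPM. Its gap to the nearest library was 0.839 of the range of the group, above the critical value of 0.829. Of 62 groups of 4 libraries examined, 1 was marked, where chance gives about 3.1. R559 also had the highest mean standardised level of the 31 rod genes.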

How the results depend on the processing

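No paired analysis was possible because the numbers in the labels name animals and no retina group shares an animal with another. The count of rod genes called with diabetes in wild-type retina (4) was 0 with only the groups compared, 0 without R915, R942 and R954, 0 with limma on log2(TPM + 1), and 0 to 6 when 1 library was left out. With diabetes in knockout retina it was 5 with DESeq2 and 0 to 0 when 1 library was left out. For the knockout in non-diabetic mice it was 1 with no filter, 2 (Impg2 and Nr2e3) with only the groups compared, 1 without R915, R942 and R954, 2 with DESeq2 and 0 to 1 when 1 library was left out. For the knockout in diabetic mice (1) it was 3 with no filter, 0 with only the groups compared, 2 with the sex covariate, 0 without R915, R942 and R954, 5 with DESeq2 and 0 to 4 when 1 library was left out. For the interaction it was 1 with no filter, 2 with DESeq2 and 0 to 1 when 1 library was left out. The cause of these moves was not tested, except that leaving out libraries or groups fits fewer samples.

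Over all genes, the 520 calls with diabetes in wild-type retina became 796 with no filter, 1 with only the groups compared, 21 without R915, R942 and R954, 251 with limma (200 higher, 51 lower), 1083 with DESeq2, and 4 (without R819) to 1501 (without R844) when 1 library was left out. The 0 calls in knockout retina became 38, 16, 1, 1 and 90 in that order, and 0 to 15. The 240 calls of the knockout in non-diabetic mice became 401, 408, 431, 158 and 504, and 120 to 373. The 374 calls in diabetic mice became 599, 61, 128, 180 and 693, and 91 to 1120, and total counts gave 285 higher and 143 lower against 213 and 161. The 26 interaction calls became 105 with no filter, 1 without the 3 libraries, 0 with lens crystallins removed, 0 with limma and 168 with DESeq2, and 0 to 541. Guca1b turned direction without R915, R942 and R954, to 0.070 for diabetes in wild-type retina and −0.034 for the knockout in diabetic retina. Of the 24 single-gene changes called under at least 1 setting, these were the 2 that turned direction. Without R915, R942 and R954 the wild-type diabetic group is R844 alone, which is then assumed to vary like the other groups. With 3 or 4 libraries a group, the median standard error of a rod gene with diabetes in wild-type retina was 0.08 on the log2 scale, which limits how small a change could be called.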
